A study of Drosophila melanogaster with 11 samples.

Results

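The baseline transcriptome of control S2 cells was described from 2 polyA RNA-seq libraries, control 1 and control 2, out of 11 samples in the series. Every gene of the deposited exon tables was a member, 16509 in all, and each was placed by its mean signal in both libraries. Of these genes, 6086 had a mean of 1 or more, 4229 lay above 0 and under 1, and 6194 were listed at 0 in both libraries. S2 cells are a Drosophila melanogaster line derived from late embryos, and per the labels the Invitrogen stock was kept at 24 °C in a serum-free medium to which 18 mM glutamine was added. The labels call both libraries dTet Ctrl and name no reagent for the control treatment. They do not say whether the replicates were separate cultures, so the spread between both libraries may be technical. The series asks where hydroxymethylcytosine lies in the RNA of these cells. Its dTet knockdown libraries were not used here, and the hMeRIP peak lists of a yellow CRISPR line and a dTet CRISPR line (1 sample each) served only as a second readout.

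Macrophage-like fly hemocytes (plasmatocytes) engulf dying cells and microbes, secrete basement membrane and answer infection, and S2 cells are regarded as resembling them. A dividing cell of any type also needs ribosomes, proteasomes, proton pumps, chromatin factors and replication proteins. Genes for smell, taste, vision, cuticle, digestion, eggshell and sperm are used by specialised cells of the whole animal. The description below follows these roles.

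The value of an exon, called signal, is the average number of reads per 40-bp bin times a scaling factor of its library. It is therefore a level per length and can be compared between genes. That factor, the signal made by 1 read in 1 bin, was 0.3398 in control 1 and 0.3904 in control 2. Summed over the bins of all genes' exons, these bin counts came to 6950659 in control 1 and 5912017 in control 2. A read that lies in several bins, or in exons of more than 1 gene, may be counted more than once, so these sums are not numbers of reads. By the ratio of both factors control 1 was 1.15 times deeper. A gene listed at 0 has a limit, given below as the signal of 3 reads counted in 1 bin each. Its median over the genes at 0 was 0.0408 in control 1 and 0.0468 in control 2. A read counted in several bins would make more signal, so these limits may be too low. Act57B, for example, was at 0 in control 1 (limit 0.0170) and had 0.182 in control 2. A listed 0 is not always an absent transcript. Prosalpha1, a core proteasome subunit that every cell uses, was listed at 0 in both libraries, and 91.3% of its exonic length is shared with the neighbouring copy CG30382 (Prosalpha1R), which was also at 0. For that reason no fold change is given against genes at 0, and such limits cover at most counting error.

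Most genes at 1 or more were of modest level. Their median signal was 2.99, with quartiles of 1.83 and 5.52, and the highest 10% exceeded 11.5. Genes at 5 or more numbered 1732, genes at 10 or more 721, genes at 50 or more 102 and genes at 100 or more 16. The threshold of 1 falls on a slope and not in a gap. CG7369 lay just inside it at a mean of 1.0004 and CG15923 just outside at 0.999995, 1812 genes lay from 1 to 2, and 1117 lay from 0.5 to 1. Control 1 alone had 6045 genes at 1 or more and control 2 alone had 6026, and 5560 genes reached 1 in both. Of the 526 genes that reached a mean of 1 with a value under 1 in a library, 12 had a 0 in that library, and 10 of these were short microRNA or snoRNA loci. These 12 are among 1510 genes of any level that had a 0 in only 1 library.

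**Figure D1:**
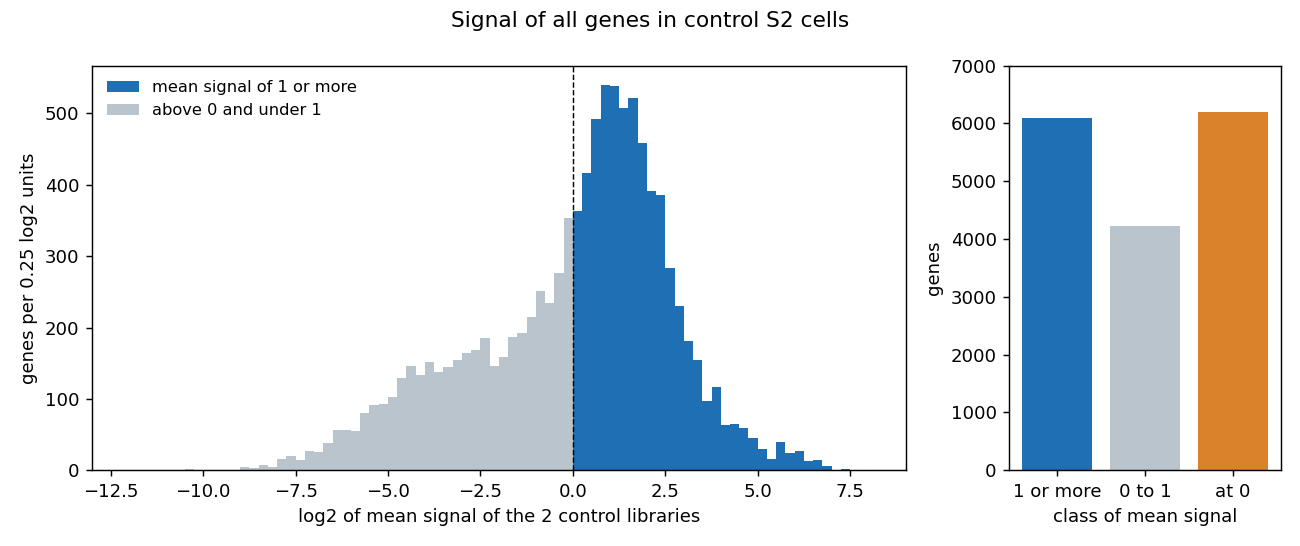
Left, histogram of the log2 mean signal of both control libraries for all genes above 0, with the threshold of 1 as a dashed line; right, the number of genes in each class. The 6086 genes at 1 or more form a broad peak around the median of 2.99, the 4229 genes above 0 and under 1 form its long lower tail, and 6194 genes were listed at 0.

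Genes at 1 or more had longer and more divided transcripts than genes at 0. The median exonic length was 2.00 kb in genes at 1 or more, against 0.954 kb in genes at 0. The median number of exons was 4 in genes at 1 or more and 2 in genes at 0, and 13.3% of genes at 1 or more had a single exon, against 37.8% of genes at 0. The classes also differ in kind of gene, with 1271 long noncoding RNAs at 0 and 100 at 1 or more. Lengths and exon numbers were not compared within 1 kind. Length also sets how low a signal can be seen, and 229 genes at 1 or more and 587 genes at 0 were under 10 bins long. Long genes were nonetheless found among those at 0. Of the 2242 genes of more than 100 bins, 1229 were at 1 or more and 299 were at 0.

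Protein-coding genes and long noncoding RNAs divided differently. Among 13624 protein-coding genes, 5589 (41.0%) reached 1 and 4467 (32.8%) were at 0. Among 1685 long noncoding RNAs, 100 (5.93%) reached 1 and 1271 (75.4%) were at 0. These polyA libraries also held loci whose RNA carries no poly(A) tail, most of them within a longer gene. Among 256 snoRNA loci, which guide chemical modification of ribosomal RNA, 130 reached 1. They were read mainly where the gene around them was read, with 123 of 208 at 1 or more (59.1%) inside genes at 1 or more and 5 of 38 (13.2%) inside genes under 1. Reads of an intron of the longer gene and reads of the small RNA could not be told apart.

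Among genes at 1 or more, the X chromosome and the autosomes had about the same median signal. The median signal of genes at 1 or more was 2.92 on the X (1044 genes) and 2.99 on chromosomes 2 and 3 (4954 genes). The log2 ratio of X over autosomes was -0.05 in control 1 and -0.01 in control 2. Both medians are over genes above the same threshold, which may draw them together. S2 cells are a male-type line, and in male flies the MSL complex is known to raise transcription of the X. Its part in this ratio was not tested. A larger share of X genes was at 1 or more (41.2%, against 36.3% of genes on chromosomes 2 and 3), and a smaller share was at 0 (29.8%, against 38.7%). Genes at 1 or more were also longer on the X, with a median of 60 bins, against 50 on chromosomes 2 and 3. On the small chromosome 4, 56 of 105 genes (53.3%) reached 1.

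The highest genes were those of the translation machinery. The leading gene was Ef1alpha48D (eEF1alpha1, at chr2R:7778639-7783266 in the dm3 build), the elongation factor that brings aminoacyl-tRNA to the ribosome. It had a signal of 167 in control 1 and 180 in control 2. RpL23A followed with 163 and 143, RpS2 with 157 and 115, and RpL22 with 122 and 123. Ribosomal proteins made up 14 of the 20 highest genes and 63 of the 100 highest. The others among the 20 were the poly(A)-binding protein gene pAbp at 123 and 113, Tctp (a growth-related protein that is abundant in most cells) at 117 and 89.4, and the constitutive chaperone gene Hsc70-4 at 105 and 94.3. Ef1gamma, another elongation factor subunit, had 112 and 79.4, and the cytoplasmic actin gene Act5C had 95.6 and 87.6. The order among neighbours in this list is not fixed by 2 libraries, because RpS2 exceeded RpL22 in control 1 (157 against 122) and was below it in control 2 (115 against 123).

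**Figure D2:**
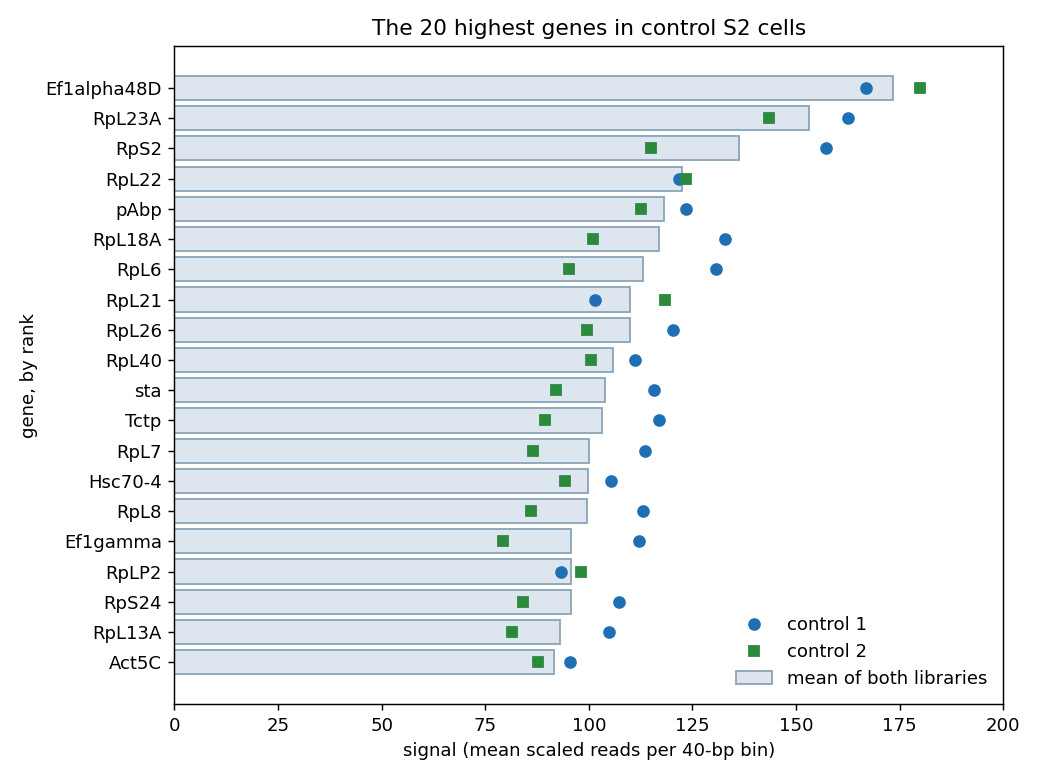
Signal of the 20 highest genes of 10 or more bins and at most 50% shared exonic length; bars are the mean of both libraries, circles control 1 and squares control 2, on a linear axis from 0. Ef1alpha48D leads at 167 and 180, and Act5C closes the list at 95.6 and 87.6, with 14 ribosomal proteins among the 20.

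Ranked instead by summed signal over the whole transcript, long genes of the extracellular matrix joined the translation genes. By this ranking, the first 10 genes took 4.13% of all signal in control 1 and 4.01% in control 2, the first 100 took 18.5% and 18.0%, and the first 1000 took 59.1% and 59.0%. pAbp held 0.566% of all signal, the type IV collagen genes Cg25C (Col4a1) and vkg held 0.532% and 0.485%, and Ef1alpha48D held 0.468%. Cg25C had a signal of 78.1 in control 1 and 77.1 in control 2 over 160 bins, and vkg had 71.0 and 65.3 over 166 bins. These chains form the main network of fly basement membranes. Next came sty (sprouty, an antagonist of receptor tyrosine kinase signalling) at 73.2 and 61.9, the laminin gene LanA at 21.6 and 28.1, and the teneurin gene Ten-m at 18.9 and 24.8. The long noncoding RNA CR42862 stood among them with 56.5 and 50.2 over 134 bins. The growth-related RNA-binding protein gene Imp had 22.4 and 17.4.

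Some gene families were almost wholly on, some almost wholly at 0, and others mixed. Each count below is to be read against all genes, of which 36.9% were at 1 or more and 37.5% at 0. The cytoplasmic ribosome was on, with 85 of its 93 listed members at 1 or more and a median signal of 62.0 in control 1 and 50.9 in control 2, against medians of 0.175 and 0.156 over all genes. The 6 members at 0 were RpL22-like, RpL10Aa, RpS10a, RpL37b, RpS28-like and RpS28a. Each is a second copy of a subunit gene, and the main copy was high in the pairs looked up after these values were seen. RpL22 had 122 and 123, RpL10Ab 74.5 and 50.2, RpS10b 69.1 and 73.1, and RpS28b 49.7 and 49.5. Copies that were above 0 and under 1 showed the same split. RpS5a had 40.6 and 34.5, against 0.0443 and 0 for RpS5b, and RpS19a had 59.1 and 43.7, against 0.736 and 0.759 for RpS19b. Not all second copies were off, since RpL24-like had 25.3 and 15.9 and RpL7-like 18.4 and 11.3, although 97.7% of the exonic length of RpL7-like is shared with another gene.

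Mitochondrial ribosomal proteins were on at a far lower level. Of 72 members, 63 reached 1 and none was at 0, but the median was only 2.57 in control 1 and 1.67 in control 2. The highest were mRpL30 (9.40 and 11.3), mRpL12 (5.54 and 5.52) and mRpS22 (3.66 and 5.78). Every mitochondrial member therefore lay below the cytoplasmic median.

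Translation initiation was on, with 36 of 45 members at 1 or more. The RNA helicase gene eIF-4a had 65.3 and 52.3, CG9769 (eIF3f1) 49.2 and 38.9, and eIF-5A 37.9 and 37.0. The 7 members at 0 were again second copies, the longest being CG4810 (eIF3d2), eIF4E-7 and eIF4E-3. The main cap-binding gene eIF-4E had 16 and 15.1.

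Proteasome subunits showed this split most clearly. Of 48 genes, 32 were at 1 or more and 15 at 0. The 32 genes that are not named as related copies had 31 at 1 or more, led by the ATPase subunit Rpt1 (14.8 and 11.7), Prosbeta6 (14.6 and 8.23) and Prosbeta5 (13.3 and 9.41), and only Prosalpha1 at 0. The 16 genes named as related copies, several of which are testis subunits, had 14 at 0, among them CG30382 and Prosbeta4R2. The exception was Rpt6R at 1.80 and 2.29, while Rpt3R lay under 1 at 0.579 and 0.897. Because Prosalpha1 and CG30382 share exonic sequence, as described above, the 0 of neither is read as an absent transcript.

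The vacuolar proton pump and the Rab GTPases each had members on and members at 0. Of 34 V-ATPase genes, 17 were at 1 or more and 10 at 0. Vha16-1, which forms the proton-carrying ring, had 49.2 and 51.1, Vha26 16.5 and 14.7, and VhaPPA1-1 17.9 and 10.8. The longest members at 0 were Vha100-5, Vha100-3 and CG31030, while Vha100-1 and Vha100-2, which encode the same subunit, had 4.91 and 6.04, and 5.70 and 4.27. Of 33 Rab genes, which direct vesicle traffic, 19 were at 1 or more and 8 at 0. Rab11 of recycling endosomes had 20.6 and 15.6, Rab1 of the early secretory route 15.5 and 15, and Rab35 13.3 and 12.7. Rab3, the Rab of synaptic vesicles, was at 0 over 96 bins (limits 0.0106 and 0.0122).

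Most genes in the lists of cyclins with their kinases and of replication were on. Median signals were 2.35 in control 1 and 2.14 in control 2 for the former, and 1.82 and 1.83 for the latter. Of 20 cyclins and cyclin-dependent kinases, 18 reached 1 and none was at 0. CycG had 33.1 and 27.9, CycY 11.5 and 10.4, and CycT 7.40 and 7.51. The mitotic cyclin CycB had 6.49 and 8.35 and CycA 4.58 and 4.79, and CycJ, known for its use in the early embryo, had 0.0179 and 0.0411. Of 17 replication genes, 14 reached 1, led by the sliding clamp PCNA (13.9 and 17.9), geminin (9.94 and 7.11) and Mcm6 (3.0 and 4.60). The 3 under 1 were Orc2, Cdc6 and lat, all between 0.684 and 0.899 by mean.

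Most enzymes of sugar metabolism were on. Of 18 listed enzymes, 13 reached 1. The highest were Gapdh2 (22.9 and 22.0), Gapdh1 (18.4 and 13.4) and the hexokinase gene Hex-A (12.4 and 11.8). Hex-t1, a testis hexokinase, and Pglym87 were at 0. Tps1, which makes the blood sugar trehalose, had 0.00894 and 0.0360, while the trehalose-splitting Treh had 2.69 and 2.61.

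Detoxification families were mixed. Among 82 cytochrome P450 genes, 18 reached 1 (22.0%) and 32 were at 0. The 3 highest were Cyp12a4 (5.50 and 7.52), Cyp12a5 (4.18 and 4.89) and Cyp6v1 (3.57 and 4.94), so no member passed 7 by mean, and Cyp6a18, Cyp312a1 and Cyp18a1 were the longest at 0. Glutathione S-transferases were on more often, with 17 of 35 at 1 or more. GstD1 had 35.2 and 22.2, GstE2 10.8 and 12, and GstD3 10.4 and 9.16, while GstZ2, GstE10 and GstE14 were at 0.

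Most chromatin regulators were on, and most histone genes were listed at 0. All 16 Swi/Snf and trithorax members reached 1, led by dalao (Bap111) at 24.4 and 26.3, osa at 8.23 and 8.18 and Bap60 at 9.12 and 4.88. Of 19 Polycomb group genes, which keep developmental genes off, 16 reached 1 and none was at 0, with Caf1 at 8.44 and 7.14, pho at 3.93 and 5.52 and ph-d at 3.57 and 3.64. Among 48 histone genes, 4 reached 1 and 41 were at 0. The 4 are the genes that are spliced and polyadenylated or replace canonical histones, namely His4r (53.2 and 42.5), His3.3B (39.9 and 30.7), His2Av (26.9 and 24.7) and His3.3A (16.7 and 11.6). Another 3 lay above 0 and under 1, and the 41 at 0 included replication-dependent copies. Their messages end in a stem-loop in place of a poly(A) tail, the files list many near-identical copies of them, and these libraries therefore say nothing of their level.

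Genes of dosage compensation, which adjusts X transcription in males, were on. Of 9 members, 8 reached 1. The limiting male subunit msl-2 had 4.04 and 3.95, mle 2.34 and 3.31, mof 2.16 and 2.77, msl-1 1.83 and 2.28, msl-3 1.08 and 1.90, and the X-binding factor Clamp 5.76 and 4.82. The noncoding roX2 RNA, a structural part of the complex, had 6.78 and 5.32, against 0.573 and 0.313 for its partner roX1, and both libraries gave this order. Sxl, the female switch gene that blocks msl-2 protein in females, also reached 1 at 2.65 and 2.88. These values count RNA over all exons and do not tell Sxl isoforms apart.

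Most of the listed small RNA pathway genes were on. Of 11 Argonaute, Dicer and partner genes, 7 reached 1, 4 lay above 0 and under 1, and none was at 0. AGO1, which carries microRNAs, had 15 and 13.4, AGO2, which carries siRNAs, 8.58 and 13.4, and Dcr-2 3.85 and 5.25. The germline piRNA members were lower than these, with aub at 2.05 and 2.21, AGO3 at 1.34 and 0.978, and piwi at 0.520 and 0.504. The members under 1 other than piwi are not named here, so no branch is shown to be on as a whole.

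Among the marker lists of cell types, that of hemocytes had the largest share on. Of 15 hemocyte markers, 13 reached 1 and their median was 7.15 in control 1 and 6.66 in control 2. The 3 highest were Cg25C, vkg and the secreted peptide gene Nplp2 (61.5 and 67.0). The clotting protein gene Hml had 10.7 and 20.1, the blood-cell GATA factor srp 12.5 and 11.2, its partner ush 7.15 and 6.47, the apoptotic cell receptor crq 22.8 and 22.3, and the phagocytic receptor eater 3.32 and 5.47. The exceptions were NimC1, a plasmatocyte surface antigen, at 0.291 and 0.121, and gcm2 (glide2, a glial and plasmatocyte factor), at 0 in both with limits of 0.0170 and 0.0195. Of 8 crystal cell and lamellocyte markers, 4 reached 1. These were msn (14.4 and 20.3), cher (5.53 and 7.82), PPO3 (1.29 and 1.85) and PPO1 (0.668 and 1.59). The crystal cell factor lz had 0.0611 and 0.570, PPO2 0.0346 and 0.132, ItgalphaPS4 0.355 and 0.268, and the lamellocyte antigen gene atilla was at 0.

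Markers of fat body, midgut, testis, muscle, neurons and glia were mostly low or at 0. Those of female germline and epithelium were mixed, with 33.3% and 53.8% at 1 or more, against 36.9% of all genes. None of 13 fat body markers, 15 midgut markers or 19 testis markers reached 1. Their levels summed over each list were 0.228 and 0.137 for the fat body, 0.190 and 0.268 for the midgut and 1.46 and 1.97 for the testis, against 310 and 315 for the hemocyte list. Most of the hemocyte sum came from Cg25C, vkg and Nplp2. The other lists summed to 38.2 and 38.3 for epithelium, 30.6 and 25.7 for neurons and glia and 29.3 and 31.1 for the female germline. Crystal cells and lamellocytes had 22.3 and 32.5 and muscle 13.5 and 14.7. Of 20 markers of neurons and glia, 4 reached 1, namely Syx1A (23.4 and 16.6), mbl (2.64 and 2.40), moody (1.77 and 3.19) and elav (1.60 and 2.14). The 6 members at 0 were the synaptic and transmitter genes VAChT, VGlut, Syt1, nSyb, ple and Gad1, which define neurons. Of 21 muscle markers, 3 reached 1 (Tm1, how and Msp300), while the myosin heavy chain gene Mhc was at 0 over 228 bins with limits of 0.00447 and 0.00514. Of 18 markers of the female germline, 6 reached 1. The Tudor-domain scaffold gene tud led with 16.2 and 18.0, followed by stau at 4.69 and 3.43 and grk at 2.27 and 2.63, while otu, bcd, nos and bam were at 0 and vas had 0.0613 and 0. Of 13 epithelial markers, 7 reached 1, with arm at 15.5 and 13.6 and cora at 8.45 and 8.21, while E-cadherin shg had 0.201 and 0.592 and crb 0.0959 and 0.191.

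The products that hemocytes secrete into matrix and blood were among the highest in the cells. Of 12 basement membrane genes, 8 reached 1. Besides the collagens, BM-40-SPARC had 78.5 and 60.8, and the laminin chains were even, with LanA at 21.6 and 28.1, LanB1 at 17.5 and 26.2 and LanB2 at 18.3 and 19.98. The second laminin alpha chain wb had 0.240 and 0.198, perlecan (trol) 0.146 and 0.108 and nidogen (Ndg) 0.0539 and 0.118. The matrix receptors were fewer, since the integrin beta chain mys had 18.2 and 21.8 but the alpha chains lay near or below 1. The highest alpha chain, mew, had 0.873 and 1.23, the second beta chain Itgbetanu 0.804 and 1.49, scb 0.544 and 0.862, ItgalphaPS5 0.540 and 0.80, ItgalphaPS4 0.355 and 0.268, and if 0.0693 and 0.0174.

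In the lists of phagocytosis and humoral defence, some members were high and others at 0, and the shares on lay on either side of the 36.9% of all genes. Of 21 Nimrod and scavenger receptor genes, 7 reached 1, led by crq, the engulfment receptor drpr (5.59 and 7.04) and pes (5.59 and 5.14), while NimA, ninaD and Sr-CIV were the longest at 0. Of 6 complement-like TEP genes, Tep2 had 21.1 and 30.4, Tep4 2.56 and 3.46 and Mcr 2.33 and 3.36, against 0.595 and 0.602 for Tep1, 0.0591 and 0.0679 for Tep5 and 0 and 0.0360 for Tep3. Of 13 peptidoglycan recognition genes, 7 reached 1. These included the sensors PGRP-SA (5.58 and 2.82) of the Toll pathway and PGRP-LC (2.89 and 2.60) of the Imd pathway, and PGRP-LF (2.96 and 2.68). PGRP-SC1b, PGRP-SC2 and PGRP-SB2 were at 0. Of 9 Toll receptor genes, 2 reached 1, Tl itself at 4.12 and 5.09 and Tollo at 1.03 and 2.03. Toll-6 was at 0 over 191 bins (limits 0.00534 and 0.00613), as were Toll-9 and MstProx.

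Among growth factor receptors, the PVF receptor was on and the EGF receptor was under 0.1 in both libraries. Of 23 ligands and receptors of this list, 9 reached 1. The EGF-like ligand spi had 23.0 and 19.8, but its receptor Egfr had 0.0230 and 0.0838 over 177 bins. Pvr, the fly PDGF and VEGF receptor that hemocytes use for survival and migration, had 9.12 and 14.0, and its ligands Pvf2, Pvf1 and Pvf3 had 8.48 and 11.2, 5.72 and 7.48, and 1.42 and 2.07. The insulin receptor gene InR had 6.5 and 7.07. The FGF receptors htl and btl had 0.101 and 0.170, and 0.050 and 0.0727, and sev and boss, a receptor and ligand of the eye, were at 0.

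In the Notch route, receptor and core factors were on and the usual targets were off. Of 17 genes, 8 reached 1, with the protease kuz at 11.0 and 13.1, mam at 6.02 and 5.99, Psn at 5.59 and 4.81, the receptor N at 3.16 and 3.66 and the DNA-binding factor Su(H) at 1.03 and 1.02. The ligand Ser had 1.77 and 1.94, against 0.186 and 0.0578 for the ligand Dl. All 7 E(spl) target genes in the list were under 0.1 by mean, and 5 of them were at 0, the longest being E(spl)mdelta-HLH, E(spl)m7-HLH and E(spl)mgamma-HLH. Of 12 Wnt ligands and receptors, fz2 (1.57 and 2.23), Wnt5 (1.04 and 1.70) and fz4 (1.26 and 1.16) reached 1, while wg, Wnt6, Wnt10 and wntD were at 0.

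Of 21 nuclear receptor genes, 8 reached 1 and 5 were at 0. The ecdysone receptor partner usp had 7.40 and 7.22, the ecdysone-induced Eip75B 5.13 and 5.91, ftz-f1 4.43 and 5.69, and EcR 1.83 and 2.21. At 0 were dsf, kni, eg, tll and Hr83, of which kni and tll pattern the early embryo.

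Cell death genes were on at both ends of the pathway. Of 7 caspases, 5 reached 1. The effector Ice (Drice) had 8.32 and 9.58, the initiator Nc (Dronc) 5.24 and 6.13, Dcp-1 4.24 and 2.69, dream (Strica) 2.92 and 3.74, and Dredd, which also acts in Imd signalling, 2.03 and 1.87, while Damm and decay were at 0. Of 10 inhibitors and inducers, 6 reached 1. The inducer rpr had 10.5 and 10.02, and the inhibitor th (Diap1), which rpr is known to block, had 9.91 and 10.1. The inducers grim and skl, which lie near rpr on chromosome arm 3L, were at 0.

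Small families of closely related genes were divided between high members and members at or near 0. Of 6 actins, Act5C (95.6 and 87.6) and Act42A (64.8 and 54.9), both cytoplasmic forms, were high. The muscle forms Act57B, Act87E and Act79B had 0 and 0.182, 0 and 0.116, and 0.0332 and 0, and Act88F of flight muscle was at 0 (limits 0.0249 and 0.0286). Of 4 alpha tubulins, alphaTub84B had 72.0 and 68.2 and alphaTub84D 7.19 and 4.76, against 0.232 and 0.324 for the maternal alphaTub67C and 0 for alphaTub85E. Of 4 beta tubulins, betaTub56D had 51.9 and 42.4 and betaTub60D 23.2 and 22.7, against 0 and 0.0509 for betaTub97EF and 0 for the testis form betaTub85D. The ubiquitous elongation factor gene Ef1alpha48D likewise stood far above its second copy Ef1alpha100E (0.126 and 0.167).

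Among transcription factor families, 3 of 5 GATA factors were on, and the RUNX, Hox and segmentation genes were almost all under 1. Of the GATA factors, srp had 12.5 and 11.2, pnr 4.73 and 5.66 and GATAd 2.83 and 2.49, while the midgut factor GATAe and grn were at 0 over 88 and 90 bins. Of 4 RUNX factors none reached 1, with lz at 0.0611 and 0.570, RunxA at 0.0774 and 0.0857, and RunxB and run at 0. All 8 Hox genes, which give body segments their identity, were off. Antp, Scr, Ubx, Dfd, lab, pb and abd-A were at 0, and Abd-B had 0.0408 and 0. The Antp limits were 0.00531 and 0.00610 over 192 bins. Of 15 gap and pair-rule genes, only h (hairy) reached 1, at 20.1 and 12.3, and 12 were at 0, the longest being Kr, run and opa. The hairy product is also known to act as a repressor outside segmentation.

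**Figure D3:**
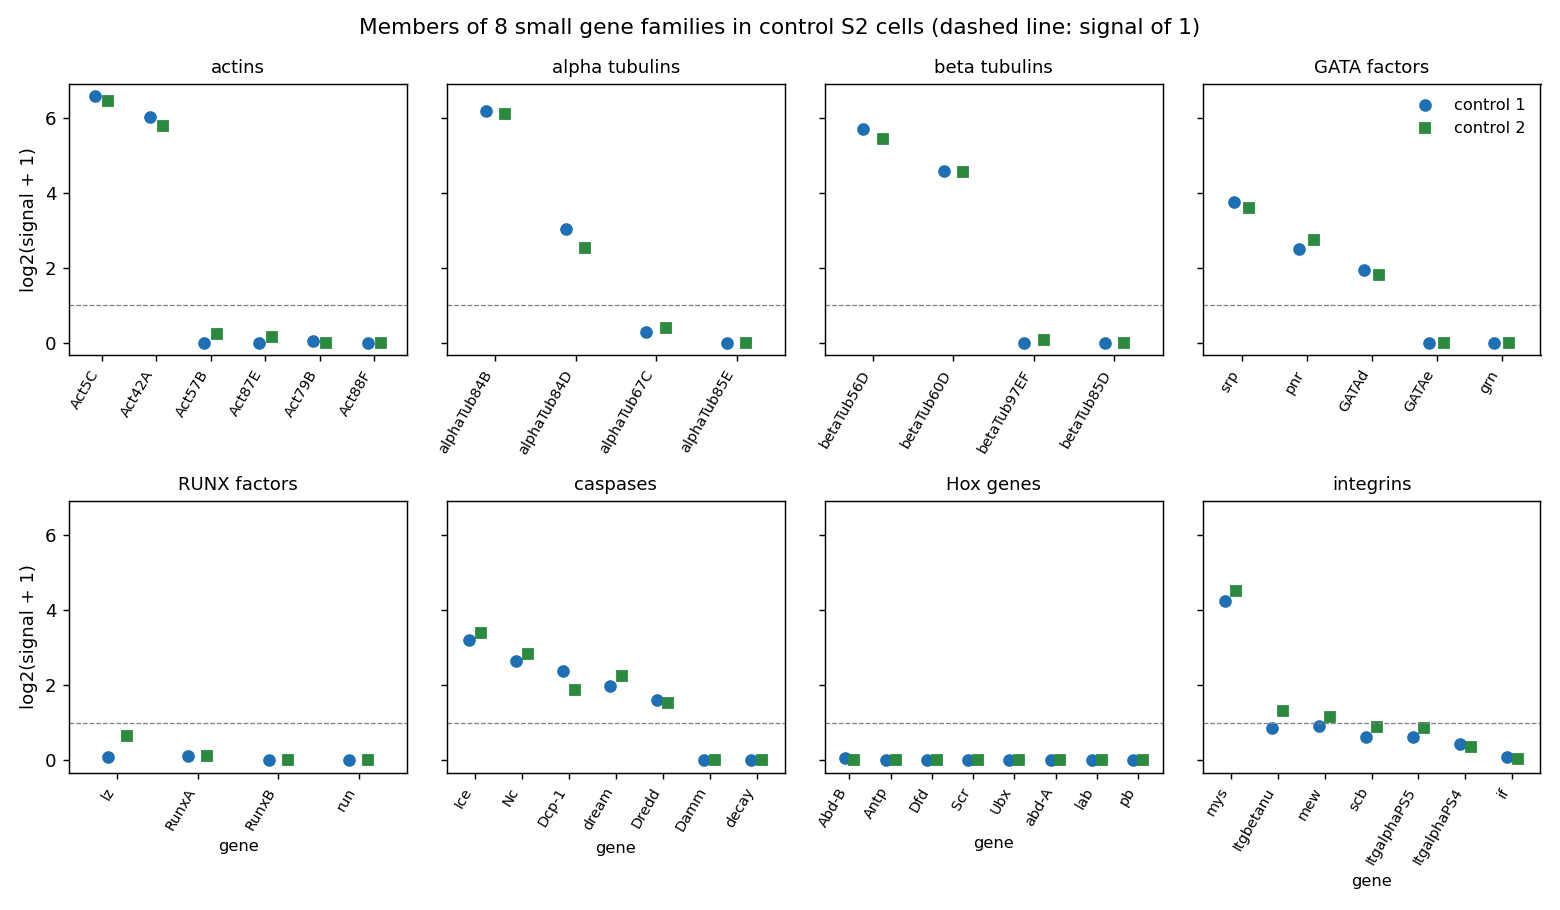
Each panel shows a small gene family, with members along the horizontal axis and log2(signal + 1) on the vertical axis; circles are control 1, squares control 2, and the dashed line marks a signal of 1. Actins, tubulins and GATA factors each have members far above the line and members at or near 0, whereas all 8 Hox genes lie at or near 0.

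Families that serve the senses were nearly silent, against 36.9% of all genes at 1 or more and 37.5% at 0. Of 60 odorant receptor genes, 1 reached 1 and 48 were at 0, and the shared coreceptor gene Orco was among those at 0 (limits 0.0204 and 0.0234). Of 59 gustatory receptor genes, 1 reached 1 and 45 were at 0, the longest being Gr28b, Gr64e and Gr64c. Of 60 ionotropic receptor genes, 4 reached 1 and 44 were at 0, the longest being Ir47a, Ir93a and Ir8a. Of 51 odorant-binding protein genes, 3 reached 1 and 39 were at 0. No rhodopsin reached 1. Of these 7, ninaE, Rh2, Rh3, Rh5 and Rh6 were at 0, Rh4 had 0 and 0.0344, and Rh7 had 0.020 and 0.00766. Of 28 neuropeptide genes, 1 reached 1 and 18 were at 0, the longest being sNPF, Mip and Ms.

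Families of skin, gut, egg and sperm products were as low. Of 122 cuticle protein genes, Cpr97Eb alone reached 1 (1.16 and 0.882), and 104 were at 0, the longest being Cpr76Bd, Cpr50Ca and Cpr47Ef. Of 24 Osiris genes, a cuticle-related family, 20 were at 0 and the highest, Osi24, had 0.163 and 0.158. Of 32 gut serine protease genes, 31 were at 0 and the remaining value was 0.00952 by mean. Of 19 chorion and vitelline membrane genes, 17 were at 0, among them dec-1 over 145 bins, and Vm34Ca was the highest at 0.157 and 0.631. Of 17 yolk, larval serum and glue genes, 13 were at 0, the longest being Fbp1, Lsp1beta and Lsp1alpha. Of 51 accessory gland and seminal genes, 43 were at 0, and 16 of the 51 were under 10 bins long.

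**Figure D4:**
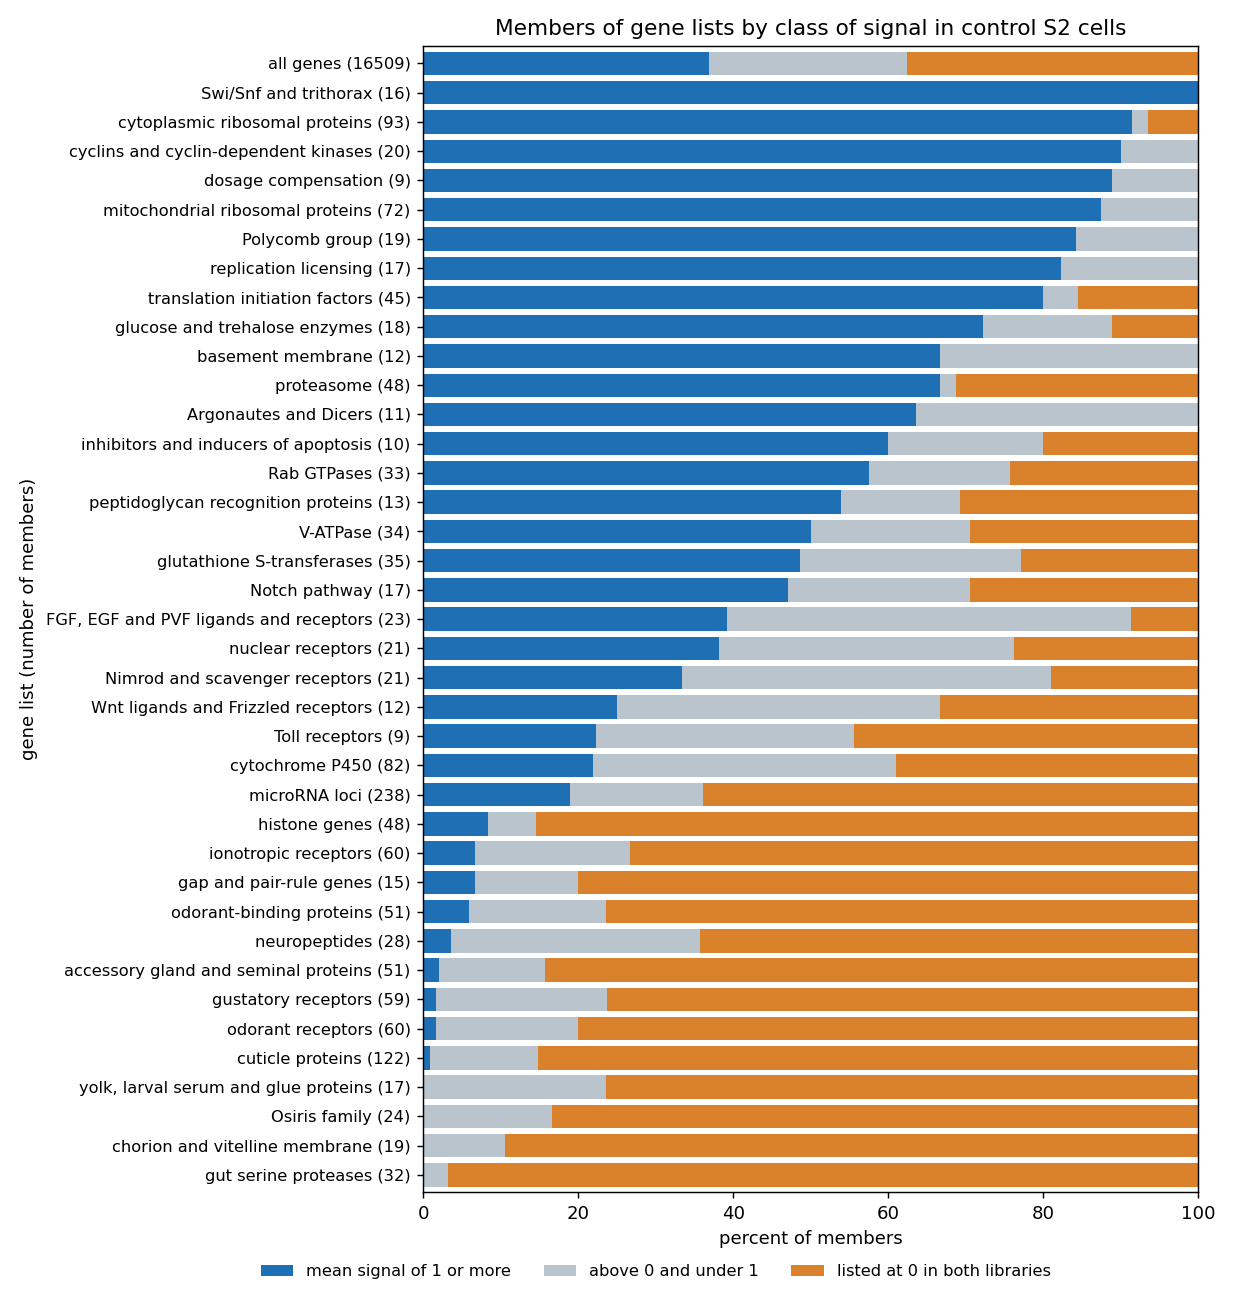
Bars give the percent of members of each list at 1 or more (left), above 0 and under 1 (middle) and listed at 0 in both control libraries (right), with list sizes in brackets and all 16509 genes on top. Lists run from Swi/Snf and trithorax, with all 16 members at 1 or more, to gut serine proteases, with 31 of 32 at 0, and all genes have 36.9% and 37.5% in the outer classes.

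The few members on within these silent families were looked at singly, and 3 of them, Gr94a, amn and Acp95EF, lay inside the span of another gene. Ir7e, Ir7f and Ir7g are neighbours at chrX:7773832-7781008, with 1.17 and 0.997, 2.52 and 2.72, and 3.33 and 1.45. On the side of lower coordinates Ir7d and Ir7c were at 0, and on the other side CG10932 (Acat1) had 2.43 and 0.706. The gustatory receptor gene Gr94a (1.18 and 1.06) lies within the span of p53 (2.54 and 1.58), and the neuropeptide gene amn (2.17 and 2.56) within the span of Hers (9.32 and 8.04). Acp95EF (0.680 and 2.34) lies wholly in exonic sequence of Spase22-23, which had 8.91 and 8.92, and its reads cannot be assigned. Or43b (2.14 and 1.27) shares 40.7% of its exonic length with another gene. Obp99c had 3.06 and 4.62 from only 1 of its 3 exons, whereas Obp44a (3.47 and 4.04) had reads in both of its exons and Obp28a (1.09 and 1.09) has a single exon. Ir76a had 0.745 and 1.43 over 9 exons, all of them with reads.

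MicroRNA loci were on mainly inside genes that were on. Of 233 loci annotated as microRNAs, 45 reached 1 and 147 were at 0, none was longer than 6 bins, and polyA libraries read precursors or host transcripts in place of mature microRNAs. Within genes at 1 or more, 41 of 89 loci (46.1%) reached 1. Within genes under 1, 3 of 91 (3.30%) did so, and outside genes 1 of 53 (1.89%). In the wider list of 238 microRNA loci, 63 had over 50% of their length in exons of another gene. Reads there count for both, so a match with the enclosing gene is partly built in. How far this adds to these shares was not tested. The highest was mir-308 at 51.1 and 64.6, inside RpS23 (66.7 and 59.7), then mir-3643 inside OstDelta at 9.85 and 22.1 and mir-33 inside HLH106 (SREBP) at 16.5 and 14.3. At this length 3 reads make a signal of at least 0.510 and 0.586 for a locus of 2 bins such as mir-308, so a 0 at such a locus sets only a loose limit.

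Several of the longest genes at 0 are known from muscle, neurons or sperm. The longest was RyR, the calcium release channel of muscle, at 0 over 414 bins in 28 exons, with limits of 0.00246 and 0.00283. CG17150 (Dnah3), an axonemal dynein heavy chain, was at 0 over 381 bins, and kl-2, a dynein fertility gene of the Y chromosome, over 322 bins. Next to them stood CG43729 (Stacl) with 362 bins, PsGEF with 355, the muscle gene Unc-89 (Obscurin) with 350, the cadherin gene ds (dachsous) with 315 and CG42795 with 280. The presynaptic gene Rim had 276 bins at 0 and the channel subunit gene unc80 had 267. A single counted read in the bins of these exons would have given a value above 0.

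Neighbouring genes tended to share a class. This was counted along the chromosome arms over 15273 genes of 10 or more bins, of which 38.2% were at 1 or more and 35.9% at 0. Genes that share exons were kept, so some neighbours rest in part on the same reads. How far this adds to the shares below was not tested. After a gene at 1 or more, the next gene was at 1 or more in 59.7% of cases and at 0 in 12.7%. After a gene at 0, the next gene was at 1 or more in 14.0% and at 0 in 66.8%. Runs of 10 or more neighbours numbered 29 for genes at 1 or more and 88 for genes at 0.

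The longest runs differed in content. At 1 or more, the longest held 19 genes from Vang to CG8046 at chr2R:4990742-5052471, with signals between 1.43 and 14.9 and GstE13 among them. Runs of 17 genes lay on 2L from CG34125 to Cg25C and on 3R from CG12746 to RpL13A. The neighbouring collagen genes vkg and Cg25C close the 2L run, which also holds mRpL28 and Trip1 (eIF3i), and the 3R run holds Vha26. At 0, the longest held 42 genes in 84.2 kb from CG13055 to CG13056 at chr3L:16242659-16326881. Its genes are short, with a median of 16 bins, 38 of them carry only CG numbers and 2 only CR numbers, and the named ones are retinin, a protein of the corneal lens, and Nplp3. The next run at 0 held 27 genes on 2L from CG31706 to Sfp33A1, with the male genes Mst33A and spag4 and the V-ATPase copy Vha100-5. Runs of 23 genes at 0 lay on 2R from CR44750 to CG43405, including the testis factor comr, and on 3L from CR45429 to CG45116.

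Most genes at 1 or more differed by less than 2-fold between the libraries, and the genes with larger differences included stress genes. Across genes, which are not independent replicates, Pearson's r of log2(signal + 1) was 0.970 over all 16509 genes and 0.925 over the 6086 at 1 or more. Among the 6086, 145 genes (2.38%) differed by more than 2-fold in signal + 1, 88 of them higher in control 1 and 57 higher in control 2, and 46 of these were under 10 bins long. With a pseudocount of 0.1 in place of 1, the number over 2-fold was 484. The difference also moved with transcript length. The median of control 1 minus control 2 on the log2(signal + 1) scale was 0.17 in genes of 10 to 25 bins and -0.09 in genes of 100 or more bins. Whether length, RNA quality or another factor lies behind this was not tested.

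Under the rule for named genes, the 5 largest differences toward control 1 held 3 heat shock genes. Hsp68 had 18.8 in control 1 and 3.57 in control 2 (log2 difference 2.12), Hsp26 had 31.5 and 6.91 (2.04), and Hsp27 had 33.6 and 8.57 (1.85). The others were ksh at 5.38 and 0.553 and the antifungal peptide gene Drs at 9.75 and 1.64. Toward control 2 stood CG34213, the Imd inhibitor gene pirk (0.390 and 2.82, log2 difference -1.46), CG30323, CR44331 and the splicing protein gene SmB (4.72 and 13.3).

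A heat shock list and a list of antimicrobial genes with pirk were then drawn up with these values known. Of 18 heat shock genes and partners, 11 reached 1 and all 11 were higher in control 1, by a median log2 difference of 1.43. Without Hsp68, Hsp26 and Hsp27, which prompted the list, all 8 were higher in control 1 and the median was 1.18. Both counts include Hsp22 (11.4 and 3.62) and Hsp67Bb (5.32 and 1.68). Hsp22 shares 100% of its exonic length with another gene and Hsp67Bb 45.9%. Their values may therefore rest on the same reads, and Hsp67Bb may have few reads of its own. The cochaperone DnaJ-1 had 28.6 and 8.41, Hsp23 23.0 and 6.48, and Hsp83, the fly Hsp90, 63.4 and 28.3. The constitutive Hsc70-4 differed least, at 105 and 94.3. The strictly inducible Hsp70 genes are near-identical copies whose reads may not be assigned to a copy, so the listed values, such as 1.63 and 0.384 for Hsp70Bc and 1.03 and 0.159 for Hsp70Bb, are uncertain as levels. Of 9 antimicrobial genes with pirk at 1 or more, 2 were higher in control 1 and 7 in control 2, with a median of -0.50. Without Drs and pirk, which prompted the list, 1 was higher in control 1 and 6 in control 2, with the same median. CecB had 0.736 and 3.19 and DptB 0.566 and 2.80, in the opposite direction to Drs. Antimicrobial members under 1 went both ways, such as AttD at 0.408 and 0 and CecA2 at 0.340 and 1.09. Over all 6086 genes at 1 or more, the median log2 difference was 0.04. Both libraries belong to the same group, so these are differences between libraries and not between conditions, and they mark genes whose control level rests on which library is read.

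**Figure D5:**
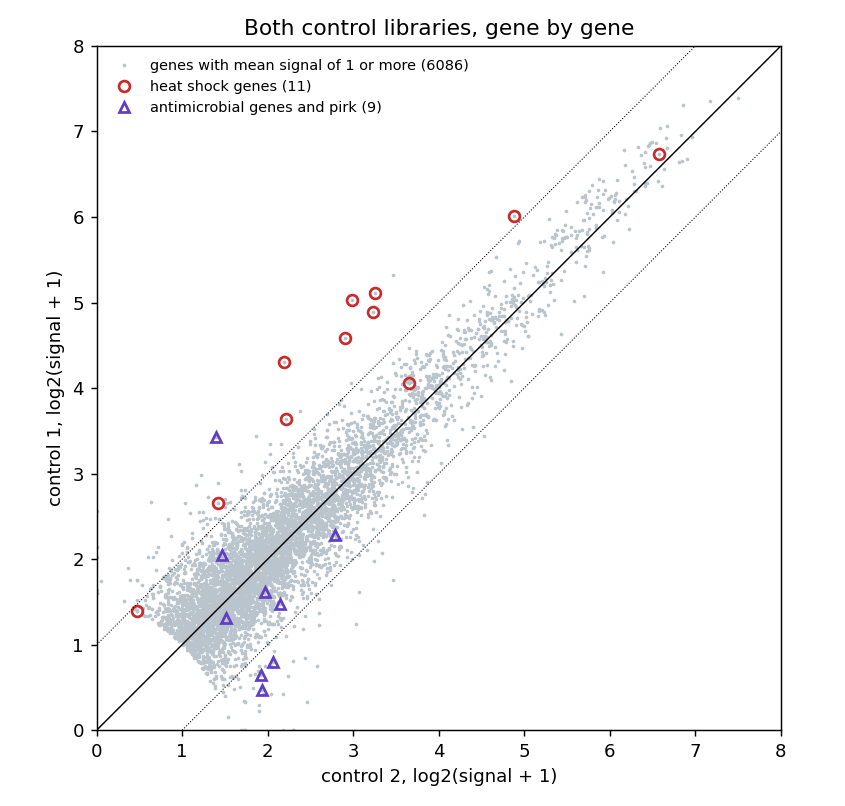
Each dot is a gene at 1 or more, with control 2 on the horizontal and control 1 on the vertical axis, both as log2(signal + 1); the solid line marks equal values and the dotted lines a 2-fold difference. The 11 heat shock genes (circles) all lie above the line, and 7 of the 9 antimicrobial genes with pirk (triangles) lie below it.

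Genes listed at 0 were almost free of hMeRIP peaks, a readout that the classes did not use. In the yellow CRISPR list of 1018 peaks, the share of genes with a peak in an exon was 0.0646% at a control signal of 0 (4 of 6194), 0.544% above 0 and under 1, 3.49% from 1 to 5, 10.2% from 5 to 20, and 13.8% at 20 or more. In the dTet CRISPR list of 964 peaks it was 0% at 0 (0 of 6194, which allows a share of up to 0.0484%), 0.922%, 4.64%, 14.4% and 20.3% in the same order. The shares at 0 rest on both libraries. Among genes at 0 in control 1, whatever their value in control 2, they were 0.103% for the yellow line and 0.0441% for the dTet line, and among genes at 0 in control 2 they were 0.0845% for each line. Over all genes at 1 or more, 340 had a yellow-line peak (5.59%, 95% Wilson interval 5.04% to 6.19%) and 471 had a dTet-line peak (7.74%, 7.09% to 8.44%). These intervals, and the upper limits for shares of 0%, treat genes as independent draws. They hold no error between samples. Abundance of the transcript and its modification cannot be told apart in these shares.

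The order of these 5 classes was the same among genes of like length. In genes of 40 to 80 bins the yellow-line share was 0.0773% at 0, 0.442% above 0 and under 1, 1.52% from 1 to 5, 6.54% from 5 to 20 and 20.6% at 20 or more. In the dTet line it was 0% at 0 (0 of 1294, which allows a share of up to 0.232%), 0.515%, 2.85%, 8.65% and 26.8%. The 4 genes at 0 with a yellow-line peak were CG2839, CG6220, CR40582 and the Y-linked fdy. There was 1 sample per CRISPR line, so these shares have no replicate error, and no comparison of the lines is made.

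For reference to the series' own target, the fly Tet gene, listed as CG43444, had a control signal of 6.93 and 8.01 over 351 bins, with reads in all of its 11 exons. The yellow gene y, the target of the other CRISPR line, had 0.503 and 1.08. Both were looked up after the other values were seen.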

How the data were processed

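The members, gene lists and comparisons were chosen with earlier results of these data known. Per the labels, polyA RNA of S2 cells was sequenced. The submitters' processing notes name BWA, MACS 1.4 and the dm3 build without their roles. Annotation, counting and duplicate handling are not given in the sources used here. The deposited tables give the authors' signal for 78680 exons: reads per 40-bp bin times 1 factor per library. With a tolerance of 0.05, the summed bin counts of 100% of the exons above 0 and under 200 were whole numbers. The total behind the factor is unknown. The peak tables give deposited coordinates, used as positions with an overlap of 1 bp. Coordinates are those of the tables (dm3), within 1 bp.

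Overlapping exons were grouped (68582 groups), the longest stood for its group, and a gene's value was the mean weighted by bins. Exons shared between genes counted for each, and in 993 genes such shared exons made up over 50% of the length. Of the symbols, 12228 were current in RefSeq's table, 4031 were synonyms and 250 were unmatched. Values were computed with Python 3.11.15, pandas 2.3.3 and scipy 1.17.1 and the gene values were tested on simulated data. No test was run, because both libraries belong to 1 group. Lists (48, and 9 of markers) were matched by symbol or name pattern. After values were seen, genes caught only by a name pattern were removed from lists (Cp190 from the chorion list, for example) and an empty tRNA list was dropped. The text names the 20 highest genes, the 10 longest at 0, the 5 largest library differences each way (all of 10 or more bins and at most 50% shared), in each list the 3 highest and 3 longest at 0, all members of lists of 8 or fewer, and ends and list members of the longest runs. Other genes named were chosen after their values were seen. Alternatives changed the exon summary, the thresholds, length and sharing filters, the scaling and the library used.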

Additional observations from a re-analysis of the deposited data

How the results depend on the processing

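Genes at 1 or more numbered 6086, against 4274 at a threshold of 2 and 7203 at 0.5. Over the alternatives run, genes at 0 numbered 5607 to 7699, list members on 406 to 584 and list members at 0 596 to 832. The log2 ratio of X over autosomes lay from -0.07 to 0.01. The longest runs held 42 to 45 genes at 0 and 19 to 24 genes at 1 or more. Some alternatives could not move a count. Genes at 0 stayed at 6194 under any exon summary, and list members at 0 stayed at 763 under thresholds of 0.5 and 2. The 100 genes with most summed signal held 18.2% of it, 16.6% with a plain mean over exons, 20.6% with the highest exon and 18.6% without shared genes. The ratio of median exonic length, in bins, of genes at 1 or more over genes at 0 was 2.08, against 2.04 with the plain mean, 1.93 in genes of 10 or more bins, 2.12 without shared genes or with 1 or more in both libraries, 2.00 at a threshold of 0.5 or without either replicate, and 1.79 with silent set at under 0.1. Peaks in genes at 1 or more were 5.59% (yellow line) and 7.74% (dTet line), against 5.00% and 6.91% with the highest exon, 4.845% and 6.75% at a threshold of 0.5, 7.11% and 10.1% at 2, and 3.62% and 5.36% in genes of 40 to 80 bins, an alternative added after the data were seen. At 0, the yellow line had 0.0646%, against 0.0845% without replicate 1, 0.103% without replicate 2 and 0.130% with silent set at under 0.1, and the dTet line had 0.0845% without replicate 1, 0.0441% without replicate 2 and 0.195% with silent set at under 0.1. With a pseudocount of 0.1, 484 genes differed over 2-fold between libraries, against 145. The cause of these shifts was not tested. Promoter motifs were not run, because no promoter sequences were used here. No paired analysis was possible because there is only 1 group. Depth limits genes of few bins most, where 3 reads alone exceed a signal of 0.5.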
